A study of Mus musculus with 6 samples.

Results

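The genes of the insulin-like growth factor (IGF) axis were examined in the host part of liver tissue that carried a human hepatocellular carcinoma (HCC) xenograft. The 10 genes were taken by name from the 56884 genes of the mouse count table and comprise the ligands Igf1 and Igf2, the growth hormone receptor Ghr, the acid-labile subunit Igfals and the binding proteins Igfbp1, Igfbp2, Igfbp3, Igfbp4, Igfbp5 and Igfbp7. Of these, 9 passed the count filter and were tested among 18018 mouse genes, and Igf2 had no counts.

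Cells of the human HCC line QGY-7703 had been placed with Matrigel in the liver of male athymic BALB/c (nu/nu) mice, which the labels give an age of 6 weeks. After 1 week the mice received, through the tail vein, an adeno-associated virus (AAV8) that carried either a control siRNA (siControl, labelled WT and control AAV) or a siRNA against mouse Aatf (siAATF, labelled KD and siAATF AAV), and they were followed for 3 more weeks. Both siRNAs were driven by the TBG promoter, which is active in hepatocytes and not in the other cells of the tumor microenvironment, and nu/nu hosts largely lack mature T cells. Total RNA of the liver was sequenced in 3 libraries per group, numbered 1 to 3, and the labels do not say how the numbered libraries relate to single mice. The p-values therefore measure the spread between these libraries, which may be technical in part.

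Growth hormone acts on the liver through GHR, JAK2 and STAT5 and drives the hepatocyte to secrete IGF1, most of which circulates bound to IGFBP3 and the acid-labile subunit. The other IGFBPs carry IGFs in smaller complexes or hold them near the cell surface and matrix, and proteases such as PAPP-A release the ligand again. In adult liver hepatocytes are the main source of Igf1, Igfals, Igfbp1 and Igfbp2 and also make Igfbp4, whereas Igfbp3, Igfbp5 and Igfbp7 are transcribed mainly in non-parenchymal cells such as endothelial cells, stellate cells and fibroblasts.

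The libraries of the groups differed in which species supplied the counts, and this sets what a level per mouse count means. Only 0.778% to 1.93% of the counts of a siControl library, but 97.9% to 99.0% of those of a siAATF library, came from mouse genes, which left 213022 to 913584 mouse counts per siControl library and 11835898 to 42563694 per siAATF library. The sampled pieces may have held different parts of tumor and host liver, which cannot be told apart from the siRNA given, so a fold between the groups need not be one within like tissue. The siRNA target Aatf had 9.63, 2.42 and 12.8 CPM (mouse counts scaled to library size with TMM factors, the main scale here) in siControl replicates 1 to 3 against 13.3, 22.0 and 18.9 CPM in siAATF, so that it was not lower in the libraries labelled siAATF (log2 fold change 0.93, standard error (SE) 0.47, adjusted p = 0.152 by the quasi-likelihood test of edgeR, adjusted after Benjamini and Hochberg). With mouse library size as the only scaling the sign of Aatf was the opposite, again without passing (-0.92, adjusted p = 0.174, edgeR), and with all gene counts of both species it was higher (5.04). The siControl values of Aatf rested on 12, 1 and 23 counts. At the protein level, the authors reported silencing of AATF in the tumor microenvironment of siAATF mice by immunoblot. Mitochondrial genes took 56.1% of the mouse counts in siAATF replicate 2 and 4.04% to 25.7% in the other libraries. Of the hepatocyte markers, 13 of 15 rose in the libraries labelled siAATF, beside 17.6% of all genes, and the other 2 did not pass. Their summed level was 10521 to 24159 CPM in siControl against 74315 to 254355 CPM in siAATF for all 15. Of the stellate cell and fibroblast markers 10 of 15 fell, beside 14.4% of all genes, from 8831 to 12926 CPM down to 378 to 614 CPM in sum. The others did not pass, with positive log2 fold changes for Hhip (6.61), Lrat (0.89) and Reln (0.57) and negative ones for Ngfr (-1.30) and Dcn. Of the endothelial markers 8 of 14 fell, from 775 to 983 CPM down to 144 to 376 CPM, although the endothelial marker Clec4g rose. Macrophage markers fell in 8 of 12 cases, from 1520 to 4723 CPM down to 160 to 269 CPM, and cholangiocyte markers in 2 of 7, Spp1 and Epcam. The markers with most counts were, for hepatocytes, Alb (log2 fold change 4.23) and Hpx (3.07, adjusted p = 0.0675), for stellate cells and fibroblasts Col3a1 (-6.67) and Dcn (-0.94, adjusted p = 0.144), and for endothelial cells Plvap (-2.53) and Stab2 (0.85, adjusted p = 0.106), where an adjusted p from edgeR is given for those that did not pass. For macrophages they were C1qa (-3.53) and C1qb (-4.15), and for cholangiocytes Spp1 (-5.39) and Sox9 (0.91, adjusted p = 0.0658, edgeR). These directions are per mouse count, and scaled by all gene counts only Col1a1, Col1a2, Col3a1 and Itgam were lower among the markers of all 5 cell types, beside 0.66% of all genes. The call of Alb was lost without siControl replicate 2 (4.01, adjusted p = 0.0543, edgeR) or 3 (4.03, adjusted p = 0.0828, edgeR), and without siControl replicate 1 C1qa was at -2.90 and C1qb at -3.41. In siControl 1 stellate cell marker (Hhip) and 2 cholangiocyte markers (Cftr and Tff2) were at 0. In such bulk samples fewer cells of a type and less RNA per cell cannot be told apart, and the part of these shifts in the results on the IGF axis was not tested. Whether reads of human origin were assigned to mouse genes in siControl was not tested either, and the human counterparts of the IGF genes were not analysed here.

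All 9 tested members had an adjusted p under 0.05 in the fit of all genes, which 32% of all mouse genes also did. The members divided into groups of opposite sign. Igf1, Igfals, Ghr, Igfbp2 and Igfbp4 rose in the libraries labelled siAATF (5 members, beside 17.6% of all genes called higher), and Igfbp1, Igfbp3, Igfbp5 and Igfbp7 fell (4 members, beside 14.4% of all genes called lower). The levels of siControl and siAATF overlapped in none of the 9, whereas among all genes 34.5% lay wholly higher and 18.1% wholly lower in siAATF. The median log2 fold change of all genes tested was 0.50. These directions are per mouse count, and those of Igfbp1, Igfbp5 and Igfbp7 depended on that scale.

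**Figure D1:**
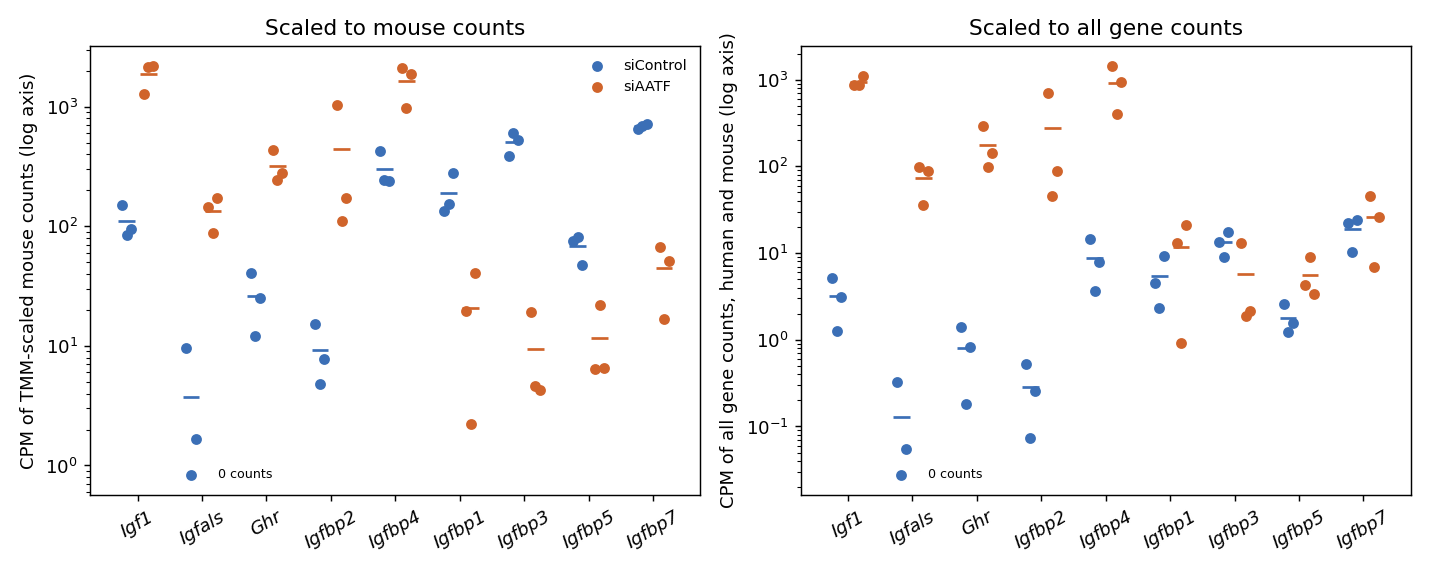
Levels of the 9 tested IGF axis genes in each library, as CPM of TMM-scaled mouse counts (left) and as CPM of all gene counts of both species (right), on log axes. Points are the 3 siControl (blue) and 3 siAATF (orange) libraries in the order of their numbers, short lines are group means, and the siControl replicate of Igfals with 0 counts is drawn below the others; CPM should be compared within a gene only. On the left no gene overlaps between the groups, and on the right Igfbp1, Igfbp3 and Igfbp7 do.

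Igf1 (ENSMUSG00000020053, chromosome 10 of GRCm39, 87694127 to 87772904, plus strand) encodes the ligand that mediates most of the growth effects of growth hormone. Its TMM-scaled level was 152, 84.6 and 94.3 CPM in siControl replicates 1 to 3 against 1280, 2138 and 2183 CPM in siAATF. The siAATF libraries all lay far above the siControl libraries, and replicate 1 was the lowest of its group. The means of 110.2 ± 36.3 (SD, n = 3) and 1867 ± 509 (SD, n = 3) CPM gave a fitted rise of 16.9-fold, a log2 fold change of 4.08 (SE 0.61, adjusted p = 0.000339, quasi-likelihood test of edgeR). The annotated antisense gene Igf1os overlaps the Igf1 locus but shares no exon base with it, and no other gene shared an exon base either.

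Igf2 (ENSMUSG00000048583, chromosome 7, 142204503 to 142220553), the fetal growth factor that is silenced in mouse liver after birth, was listed at 0 counts in all 6 libraries. A count of 0 allows up to 3 counts per library, or 3.28 to 14.1 CPM before TMM scaling in a siControl library and 0.0705 to 0.253 CPM in a siAATF library, for counting error only. The limit does not apply to the whole gene, because 70.4% of its 5249 exonic bases are shared with exons of Gm49394 and Igf2os, and reads on shared bases can be left out of the count of each gene. The remaining 1555 bases also gave no counts.

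Ghr (ENSMUSG00000055737, chromosome 15, 3347242 to 3612712, minus strand) encodes the receptor through which the liver senses growth hormone. Its level was 40.9, 12.1 and 25.1 CPM in siControl against 434, 243 and 279 CPM in siAATF, again without overlap and with a smaller gap than Igf1. With means of 26.0 ± 14.5 (SD, n = 3) and 318 ± 101 (SD, n = 3) CPM, the log2 fold change was 3.55 (SE 0.53, adjusted p = 0.000338, edgeR), an 11.7-fold rise. The siControl values rested on 51, 5 and 45 counts.

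Igfals (ENSMUSG00000046070, chromosome 17, 25097232 to 25100984, plus strand) encodes the acid-labile subunit, which hepatocytes secrete under the control of growth hormone and STAT5. It had 12, 0 and 3 counts in siControl against 4191, 434 and 3126 counts in siAATF, or 9.63, 0 and 1.67 CPM against 145, 87.5 and 173 CPM. The lowest siAATF library was above the highest siControl library, and the siControl level is known only roughly from so few counts. The means of 3.77 ± 5.15 (SD, n = 3) and 135 ± 43.7 (SD, n = 3) CPM gave a log2 fold change of 4.96 (SE 0.70, adjusted p = 0.000246, edgeR), and leaving out each replicate in turn moved it between 4.43 and 6.69, the latter without siControl replicate 1.

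The promoter of Igfals is shown because it holds the palindrome TTCNNNGAA that STAT factors bind, a motif found in 8.3% of all 32851 RefSeq promoter windows of 300 bases when either strand was searched. Among the 17 windows of the 10 members, only 2 held it, both of Igfals and each with a match of its own, 236 and 58 bases before their starts. The windows do not overlap. The sequence covers the 250 bases before the second of these RefSeq starts, chr17:25096955-25097204 of GRCm39 on the plus strand, with the motif in capitals 58 bases before that start.
Igfals: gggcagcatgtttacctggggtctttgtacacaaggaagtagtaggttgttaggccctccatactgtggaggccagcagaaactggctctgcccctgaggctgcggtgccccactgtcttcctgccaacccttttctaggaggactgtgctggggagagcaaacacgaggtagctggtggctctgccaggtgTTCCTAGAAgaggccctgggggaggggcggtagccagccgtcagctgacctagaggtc
The capitals mark matching letters only, and nothing in these libraries measured binding at this place.

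Igfbp2 (ENSMUSG00000039323, chromosome 1, 72863662 to 72891633, plus strand) encodes a binding protein that the liver secretes in larger amount on fasting. It showed the largest fitted fold change of the members that rose and the widest spread. The level was 15.3, 4.83 and 7.81 CPM in siControl, from 19, 2 and 14 counts, and 1044, 110.3 and 173 CPM in siAATF. Replicate 1 stood far above the other siAATF libraries, a range of 9.46-fold within the group, and still the lowest siAATF library was above every siControl library. The log2 fold change was 5.49 (SE 0.92, adjusted p = 0.000720, edgeR), and it was 3.88 without siAATF replicate 1.

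Igfbp4 (ENSMUSG00000017493, chromosome 11, 98932070 to 98945218, plus strand) encodes the binding protein that PAPP-A cleaves. Its level was 429.5, 244 and 238 CPM in siControl against 2114, 972 and 1868 CPM in siAATF, the smallest step among the genes that rose. From means of 304 ± 109 (SD, n = 3) and 1651 ± 601 (SD, n = 3) CPM, the log2 fold change was 2.44 (SE 0.58, adjusted p = 0.00659, edgeR). The call was lost without siControl replicate 3 (log2 fold change 2.28, adjusted p = 0.0681, edgeR) and with mouse library size as the only scaling (0.72, adjusted p = 0.376).

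Igfbp1 (ENSMUSG00000020429, chromosome 11, 7147782 to 7152546, plus strand) encodes a binding protein of hepatocytes that insulin represses through FOXO1 and that fasting and stress raise. In contrast to the hepatocyte genes above, it was lower per mouse count in siAATF. Its level was 134, 155 and 278 CPM in siControl against 19.5, 2.22 and 41.2 CPM in siAATF. No library overlapped between the groups, although the siAATF libraries spread over 18.6-fold, with replicate 2 at only 11 counts. The log2 fold change was -3.16 (SE 0.76, adjusted p = 0.00690, edgeR), an 8.95-fold fall, and it was -4.02 without siAATF replicate 3, the highest of its group.

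The promoter of Igfbp1 is printed since the 2 motifs in capitals match letters of the insulin-responsive and hepatocyte nuclear factor elements for which this promoter is known. The first, CAAAACA, one arm of the insulin response element, was present in 6.28% of all windows on either strand and lay 108 bases before the start. The second is an HNF1-type motif of 10 bases, found in 0.399% of windows and here on the reverse strand, 60 bases before the start. The motifs do not overlap, and no other window of the members held either of them. The sequence is chr11:7147537-7147786 of GRCm39 on the plus strand, whose last 5 bases belong to the first exon in the deposited table.
Igfbp1: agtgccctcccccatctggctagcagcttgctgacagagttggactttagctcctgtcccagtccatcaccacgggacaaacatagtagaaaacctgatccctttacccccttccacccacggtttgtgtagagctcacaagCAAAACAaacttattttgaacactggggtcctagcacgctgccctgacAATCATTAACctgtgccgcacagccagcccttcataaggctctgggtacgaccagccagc
A match of letters does not show that a factor was bound in these livers.

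Igfbp3 (ENSMUSG00000020427, chromosome 11, 7156086 to 7163923, minus strand) encodes the main carrier of IGF1 in serum, made in the liver by sinusoidal endothelial and other non-parenchymal cells. It showed the largest fall of the members. Its level was 391, 604 and 532 CPM in siControl against 19.2, 4.64 and 4.27 CPM in siAATF, where 556, 23 and 77 counts were found. Every siControl library lay far above every siAATF library, of which replicate 1 was the highest. The means of 509 ± 108 (SD, n = 3) and 9.37 ± 8.51 (SD, n = 3) CPM gave a log2 fold change of -5.74 (SE 0.71, adjusted p = 0.000110, edgeR), a 53.3-fold fall. Without siAATF replicate 1 it was -6.82.

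Igfbp1 and Igfbp3 lie end to end on chromosome 11, with their 3′ ends facing and 3539 bases and no other gene between them, and both were lower per mouse count. Their promoters differ in base composition, which is why that of Igfbp3 is shown beside that of Igfbp1. The ratio of observed to expected CpG was 0.961 in the Igfbp3 window and 0.383 in the Igfbp1 window, against a median of 0.384 over all windows, of which 35.8% exceeded 0.6. The Igfbp3 sequence is chr11:7163924-7164173 of GRCm39, read on the minus strand, with its 32 CpG dinucleotides in capitals.
Igfbp3: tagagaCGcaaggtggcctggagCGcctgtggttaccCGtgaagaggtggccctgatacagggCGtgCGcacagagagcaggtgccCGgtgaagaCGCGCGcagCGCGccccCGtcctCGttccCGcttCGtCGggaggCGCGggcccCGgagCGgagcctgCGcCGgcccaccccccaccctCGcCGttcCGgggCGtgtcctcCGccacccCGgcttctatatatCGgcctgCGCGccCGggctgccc
Among the other members, windows of Igfbp7 (0.832), Igfbp4 (0.724) and Igfbp2 (0.645 and 0.647) exceeded 0.6, and those of Igfbp5 (0.420), Igf1 (0.307) and Igfals (0.154 to 0.211) did not, while Ghr (0.700 and 0.459) and Igf2 had windows on either side, so genes that rose and genes that fell were found on both sides. The TATA motif TATAAA, held by 13.6% of all windows on either strand, was found 28 bases before the start of Igfbp4 and 188 bases before one start of Ghr.

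Igfbp5 (ENSMUSG00000026185, chromosome 1, 72897091 to 72914043, minus strand) encodes a binding protein that is held in the extracellular matrix. It lies 5457 bases from Igfbp2 with no gene between them, and this neighbouring pair moved in opposite directions per mouse count. Its level was 75.5, 82.1 and 47.4 CPM in siControl against 6.38, 22.0 and 6.55 CPM in siAATF, with replicate 2 the highest of the siAATF libraries. The log2 fold change was -2.57 (SE 0.52, adjusted p = 0.00244, edgeR), the smallest fall of the members that fell in this fit. It was -3.32 without siAATF replicate 2, and -4.93 with every library thinned to 213022 mouse counts, where Igfbp1 was at -3.33 and Igfbp7 at -4.61.

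Igfbp7 (ENSMUSG00000036256, chromosome 5, 77497087 to 77555888, minus strand) encodes a secreted protein of vessel walls and fibroblasts that binds IGFs weakly. Its siControl libraries were the most alike of any member, at 657, 688 and 719 CPM, and the siAATF libraries were at 67.8, 16.7 and 50.9 CPM. The means of 688 ± 31.1 (SD, n = 3) and 45.1 ± 26.0 (SD, n = 3) CPM gave a log2 fold change of -3.92 (SE 0.59, adjusted p = 0.000368, edgeR), a 15.2-fold fall. Of its exonic bases 7.03% are shared with Polr2b on the opposite strand, and whether the counting used the strand is not given in the sources used here.

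Igfbp6, the binding protein with a preference for IGF2, is no member but completes the family. It had 13.6, 12.1 and 10.04 CPM in siControl against 0.932, 2.02 and 5.60 CPM in siAATF, a log2 fold change of -2.03 (SE 0.66, adjusted p = 0.0334, edgeR), a call that was lost when any library but siAATF replicate 3 was left out, and the value was -3.05 without that library. The family thus held 2 genes that rose and 5 that fell per mouse count, and with all gene counts as the scaling Igfbp6 was higher (2.13, adjusted p = 0.0131, edgeR).

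The order of the genes within a library was compared on RPKM, the TMM-scaled CPM divided by the gene length in kilobases. In siControl Igfbp7 was first at 569 ± 25.7 (SD, n = 3) RPKM, above Igfbp3 at 163 ± 34.6, Igfbp1 at 124 ± 51.2 and Igfbp4 at 77.4 ± 27.8, where Igfbp3 overlapped Igfbp1 and Igfbp1 overlapped Igfbp4. A lower tier began with Igfbp5 at 11.4 ± 3.07 and Igf1 at 11.1 ± 3.67 RPKM, and continued through Igfbp6, Igfbp2 and Ghr to Igfals at 1.44 ± 1.96, each overlapping the next. In siAATF the order was led by Igfbp4 at 421 ± 153, Igfbp2 at 303 ± 357 and Igf1 at 189 ± 51.4 RPKM, each overlapping the next, and Igf1 lay above Ghr without overlap. Ghr at 68.7 ± 21.9, Igfals at 51.5 ± 16.6 and Igfbp7 at 37.3 ± 21.5 RPKM followed, and Igfbp1 at 13.7 ± 12.8, Igfbp3 at 2.99 ± 2.72, Igfbp6 at 2.56 ± 2.20 and Igfbp5 at 1.94 ± 1.49 RPKM came last, each overlapping the next. The ligand Igf1 thus stood above Igfbp7, Igfbp1 and Igfbp3 in siAATF and below all 3 in siControl.

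The make-up of the binding protein transcripts needs no library scaling, since each gene is set against the sum of Igfbp1 to Igfbp7 in the same library, in counts per kilobase. Igfbp7 supplied 60.3%, 59.7% and 57.7% of this sum in siControl against 4.21%, 4.01% and 6.28% in siAATF. Igfbp4 supplied 12.2%, 6.52% and 5.88% in siControl against 40.5%, 71.7% and 70.9% in siAATF. The dominant binding protein transcript was therefore Igfbp7 in every siControl library, and Igfbp4 in siAATF replicates 2 and 3, whereas in siAATF replicate 1 Igfbp2 led with 53.7%. Igfbp2 made up 21.9% and 17.6% in the other siAATF libraries and 1.16%, 0.347% and 0.519% in siControl. Igfbp3 stayed under 0.5% in each siAATF library (0.461%, 0.429% and 0.203%), compared with 13.9%, 20.2% and 16.5% in siControl. The share of Igfbp1 was 9.76%, 10.6% and 17.7% in siControl against 0.961%, 0.421% and 4.02% in siAATF. The groups did not overlap for these 5 genes or for Igfbp6 (two-sided exact permutation test with p = 0.1 throughout, as low as 3 libraries against 3 can reach), so that none could pass 0.05 in this design. For Igfbp5, which supplied at most 1.43%, they overlapped (exact p = 0.2). With raw counts in place of counts per kilobase all 7 genes were without overlap.

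**Figure D2:**
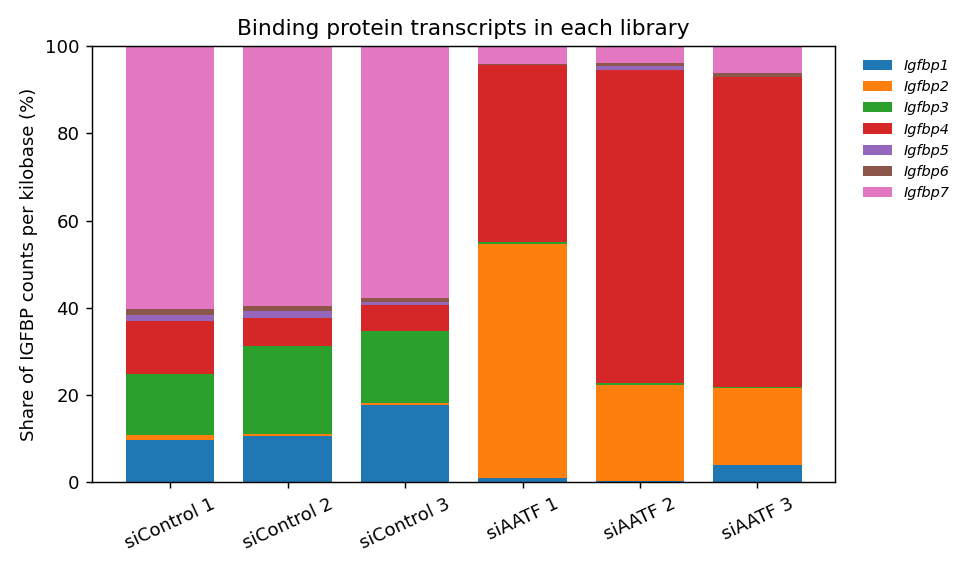
Share of each binding protein gene in the summed counts per kilobase of Igfbp1 to Igfbp7, in percent, for each of the 6 libraries. Igfbp7 takes 57.7% to 60.3% in siControl, and Igfbp4 and Igfbp2 together take most of each siAATF library.

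The ligand was also set against its binding proteins. The ratio of Igf1 to summed Igfbp1 to Igfbp7, both per kilobase, was 0.0170, 0.00895 and 0.00924 in siControl against 0.0971, 0.625 and 0.329 in siAATF. Every siAATF library had more Igf1 transcript per binding protein transcript than any siControl library, with siAATF replicate 1, where Igfbp2 was high, nearest to siControl (exact permutation p = 0.1, two-sided, the smallest possible).

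Levels per mouse count do not say how much of a transcript the whole tissue sample held, so the members were also scaled to the counts of both species together, as CPM of all gene counts. The 5 members that rose per mouse count were also wholly higher on this scale, as were 83.9% of all mouse genes. Igf1 had 5.18, 1.28 and 3.13 CPM of all gene counts in siControl against 863, 877 and 1112 in siAATF, a ratio of the means of 298. Igfals, Ghr, Igfbp2 and Igfbp4 had ratios of 577, 221, 982 and 106. These rested in part on single libraries, since without siControl replicate 1 they were 2664, 351, 1680 and 159.9, without siAATF replicate 1 that of Igfbp2 was 235, and without siControl replicate 2 that of Igfals was 385. Of the members that fell per mouse count, none was wholly lower here. Igfbp7 had 22.4, 10.4 and 23.8 CPM of all gene counts in siControl against 45.7, 6.86 and 25.9 in siAATF, which overlapped (exact permutation p = 0.7). Igfbp1 had 4.57, 2.34 and 9.23 in siControl against 13.1, 0.910 and 21.0 in siAATF, also overlapping (exact p = 0.4). For Igfbp3 the levels were 13.3, 9.13 and 17.6 in siControl against 12.9, 1.90 and 2.18 in siAATF, where only siAATF replicate 1 reached the range of siControl (exact p = 0.2). Igfbp5 was wholly higher in siAATF on this scale, at 2.57, 1.24 and 1.57 in siControl against 4.30, 9.01 and 3.34 in siAATF (exact p = 0.1, the smallest possible). Only 0.655% of all mouse genes were wholly lower on the scale of all gene counts, and no member was among them.

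The same was seen in the fit across all genes. With all gene counts as the scaling, the median log2 fold change of all mouse genes was 4.66, 87.2% were called higher and 0.66% lower. Igfbp3 then kept a negative log2 fold change of -1.22 without passing the threshold (unadjusted p = 0.0586, adjusted p = 0.0661, edgeR), Igfbp7 was at 0.47 (adjusted p = 0.511), Igfbp1 at 1.12 (adjusted p = 0.0902) and Igfbp5 rose by 1.61 (adjusted p = 0.0185). With mouse library size alone the median of all genes was -1.30, 4.15% were called higher and 40.4% lower, and 8 of the 9 members kept their call, Igfbp4 being the exception.

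**Figure D3:**
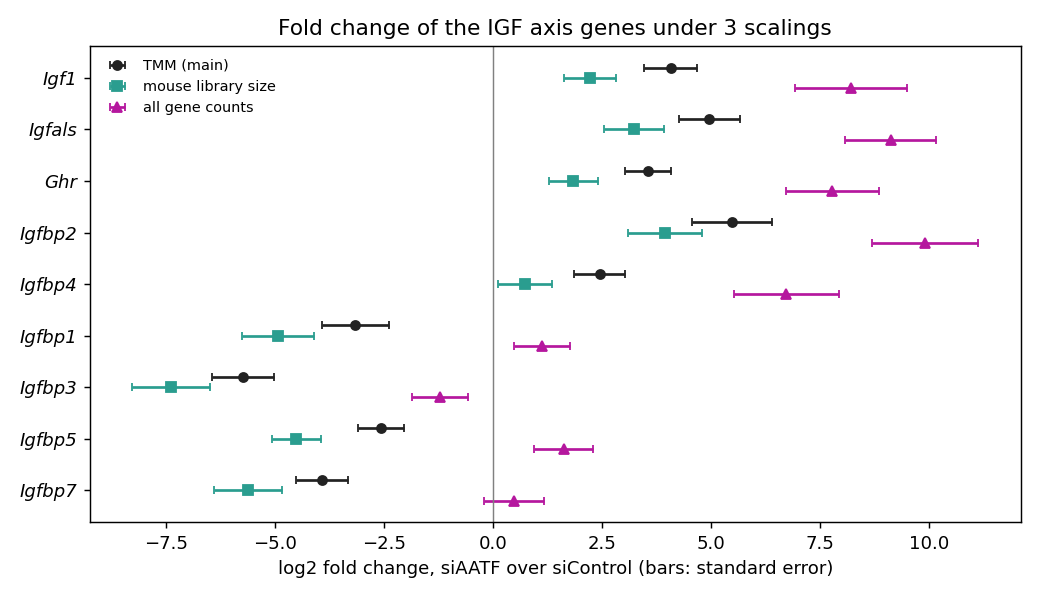
Log2 fold change of each tested member, siAATF over siControl, with its standard error as the bar, after TMM scaling (black), with mouse library size alone (green) and with all gene counts of both species (purple). The 5 upper genes are positive under every scaling, and Igfbp1, Igfbp5 and Igfbp7 change sign between mouse-based scaling and all gene counts.

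Since hepatocyte markers rose with the group, each member was set against the summed counts of the 15 hepatocyte markers in its own library. On this scale 74.6% of all genes tested were wholly lower in siAATF and 1.01% wholly higher. Igf1 had 6.28, 8.04 and 8.31 counts per 1000 hepatocyte marker counts in siControl against 8.65, 28.8 and 8.58 in siAATF. The groups were next to each other without overlap, and only siAATF replicate 2 stood clearly apart (log2 difference 0.77, exact permutation p = 0.1, the smallest possible), and without it the difference was 0.19. With Alb alone as the denominator the difference was -0.092. Igfals was at 0.399, 0 and 0.148 in siControl against 0.977, 1.18 and 0.682 in siAATF, wholly higher by 2.19 on the log2 scale with 0.5 counts added. Ghr overlapped between the groups, at 1.69, 1.15 and 2.21 in siControl against 2.93, 3.27 and 1.10 in siAATF (exact p = 0.6). Igfbp2 overlapped as well, since only siAATF replicates 1 and 2, at 7.05 and 1.48, exceeded the siControl libraries at 0.459 to 0.689 (exact p = 0.2). Igfbp4 was wholly lower per hepatocyte marker, at 17.8, 23.2 and 21.0 in siControl against 14.3, 13.1 and 7.34 in siAATF. Per summed hepatocyte marker count, therefore, Igf1 and Igfals were the members wholly higher in siAATF, which for Igf1 depended on the sum. The sum did not weigh the same genes in each group. Trf, which did not pass (1.87, adjusted p = 0.159, edgeR), had most counts of these markers in siControl (11615, 1843 and 9381). In siAATF it was Alb in replicates 1 and 2 (1226288 and 61950) and Hpx in replicate 3 (1232042). The fitted 4.08 of Igf1 also lay below the median of the hepatocyte markers, 4.91. Igfbp1, the other hepatocyte gene among the binding proteins, was at 5.55, 14.7 and 24.6 in siControl against 0.132, 0.0299 and 0.162 in siAATF, a log2 difference of -7.18, which was -6.44 without siAATF replicate 2 and -7.77 without siControl replicate 1.

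The binding proteins of non-parenchymal cells were set against the markers of those cells in the same way, a choice made after the data were seen. Against stellate cell and fibroblast markers 88.3% of all genes tested were wholly higher in siAATF and 0.649% wholly lower, and against endothelial markers 57.8% and 6.29%. Per 1000 counts of stellate cell and fibroblast markers, Igfbp7 had 74.4, 55.1 and 55.6 in siControl against 110.4, 38.7 and 135 in siAATF, with overlap. Igfbp3 stayed wholly lower, at 44.3, 48.3 and 41.2 in siControl against 31.2, 10.7 and 11.3 in siAATF, a log2 difference of -1.50. Igfbp5 was wholly higher, at 8.55, 6.57 and 3.67 in siControl against 10.4, 50.8 and 17.3 in siAATF, a log2 difference of 1.82, or 1.18 without siAATF replicate 2. Different genes weighed most in this sum, since Col1a1, Col1a2 and Col3a1 each exceeded Dcn in every siControl library and in no siAATF library. In siControl replicate 1 they had 3274, 2829 and 3224 counts beside 546 of Dcn. In siAATF replicate 1 they had 417, 1139 and 1256 beside 10405. These ratios hold for this sum, and its single genes were not tested as denominators. Against the endothelial markers, Igfbp3 was again wholly lower (505, 614 and 634 in siControl, 51.0, 32.1 and 28.3 in siAATF), as was Igfbp7 (848, 700 and 856 in siControl, 180.1, 116 and 338 in siAATF), and Igfbp5 overlapped. Igfbp3 was thus the only member lower against each of these marker sums as they were composed here. Igfbp7 was wholly lower against the hepatocyte and endothelial sums and overlapped only against the stellate cell and fibroblast sum. All non-overlapping differences here had an exact permutation p of 0.1, the smallest possible.

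**Figure D4:**
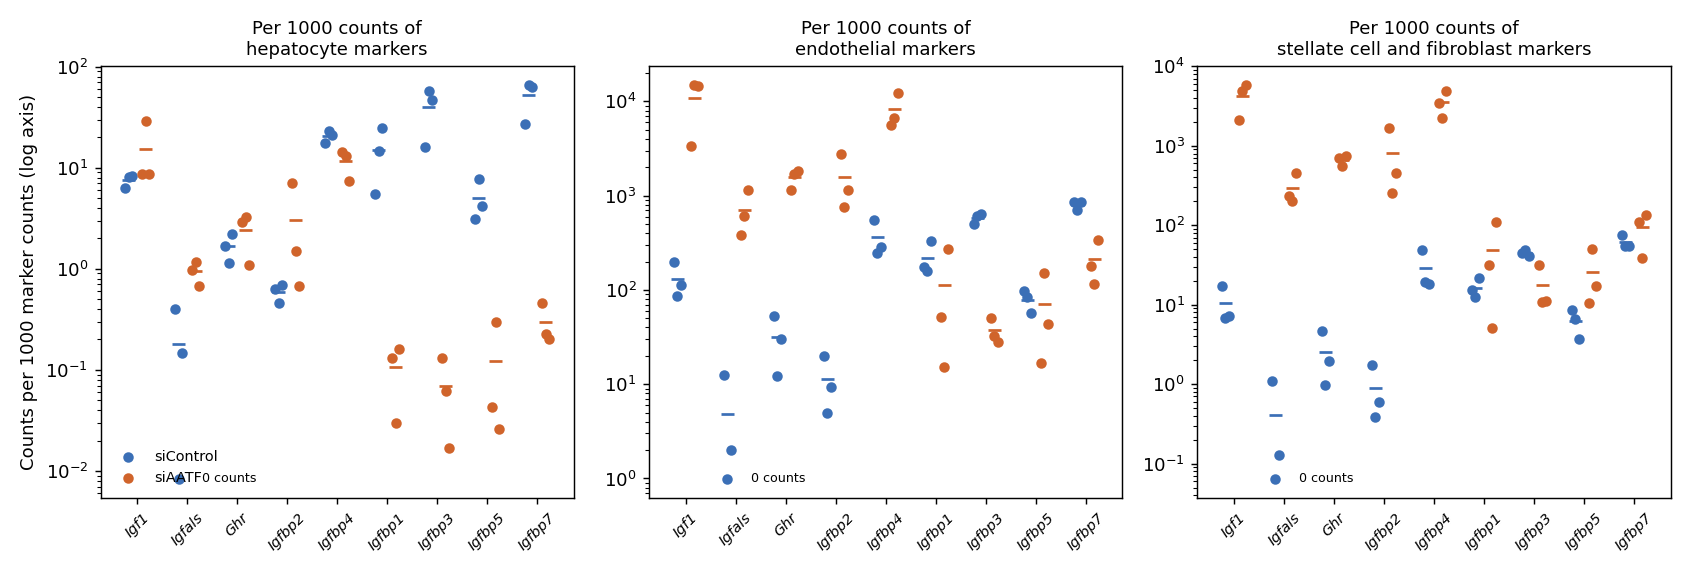
Counts of each tested member per 1000 summed counts of hepatocyte markers (left), endothelial markers (middle) and stellate cell and fibroblast markers (right) in the same library, on log axes, with siControl in blue, siAATF in orange and short lines for group means. Igf1 and Igfbp4 lie close between the groups in the left panel, Igfbp3 is lower in siAATF in all 3 panels, and the Igfals library with 0 counts is drawn below the others.

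The genes around the IGF axis were described by 7 lists with 120 genes in all. Of these 108 were tested and 51 passed the threshold (47.2%, beside 32% of all genes). Of the 51, 13 lost the call when a library was left out, among them Cebpa, H19, Irs1, Map2k2, Mapk3, Pappa and Igfbp6, and 22 moved by over 1.5-fold. Among the receptors, Insr, the insulin receptor, rose from 29.7, 29.0 and 56.9 CPM in siControl to 98.0, 126 and 140 CPM in siAATF (log2 fold change 1.62, SE 0.41, adjusted p = 0.00962, edgeR). The IGF receptors did not pass. Igf1r, the signalling receptor for IGF1 that adult hepatocytes express little, had 12.0, 14.5 and 20.1 CPM in siControl against 10.2, 12.9 and 5.05 CPM in siAATF (log2 fold change -0.77, adjusted p = 0.224, edgeR). Igf2r, which clears IGF2, had a log2 fold change of 0.43 (adjusted p = 0.398, edgeR), and Insrr was at 0 counts in all libraries. These directions depended on the scaling, since with mouse library size alone Insr did not pass (-0.23, adjusted p = 0.698, edgeR) and Igf1r (-2.59) and Igf2r (-1.35) were lower, as were 40.4% of all genes. With all gene counts all 3 were higher, as were 87.2% of all genes.

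Of the growth hormone signalling genes, 4 of 17 rose and 3 fell, beside 17.6% and 14.4% of all genes, with a median log2 fold change of 0.67. This median was above that of all genes by 0.17, and the difference was -0.40 with no filter on low counts and -0.86 with at least 10 counts in every library, which left 8 of the 17 genes. Those that rose were Prlr, the prolactin receptor (5.17), the hepatocyte transcription factor genes Onecut1 (4.96) and Hnf4a (3.27), and Cebpa (1.96). Without siControl replicate 1 Onecut1 was at 5.92, Hnf4a at 4.07 and Cebpa at 2.60. Those that fell were Socs1 (-3.16), Ptpn6 (-2.56) and the receptor kinase gene Jak2 (-2.09), of which Socs1 and Ptpn6 encode inhibitors of cytokine signalling that are abundant in blood cells. Jak2 had 35.3, 48.3 and 52.4 CPM in siControl against 10.8, 8.27 and 12.6 CPM in siAATF, without overlap. The direct growth hormone targets Socs2 (1.15, adjusted p = 0.0616) and Cish (0.56, adjusted p = 0.602) and the factors Stat5a (0.59, adjusted p = 0.380) and Stat5b (0.76, adjusted p = 0.167) did not pass the test of edgeR. Scaled by all gene counts 16 of the 17 were higher, Jak2 included (2.21), beside 87.2% of all genes. With mouse library size alone 3 were higher and 7 lower, beside 4.15% and 40.4% of all genes.

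Of the 14 genes of IGFBP-related proteins other than the members, 12 were tested, of which 8 fell (14.4% of all genes did) and 4 did not pass, with a median log2 fold change of -2.62. Relative to the median of all genes this was -3.12, and -4.45 without siAATF replicate 1. The largest falls were those of Esm1 (-9.35), an endothelial proteoglycan, Ccn2 (-5.43), a matricellular protein of fibroblasts, and Htra1 (-4.53), a secreted serine protease. Ccn2 had 265, 411 and 227 CPM in siControl against 14.8, 2.42 and 2.94 CPM in siAATF. The genes for IGFBP proteases and their inhibitors fell in 13 of 15 cases, again beside 14.4% of all genes, and the other 2 did not pass, with a median of -4.45. Pappa, the protease of IGFBP4, was low throughout, at 4.82, 0 and 2.79 CPM in siControl against 0.483, 0.202 and 0.0555 CPM in siAATF (log2 fold change -3.41, adjusted p = 0.0334, edgeR), with levels that did not overlap except for the siControl library at 0. Its inhibitors Stc1 (-7.90) and Stc2 (-5.69) fell as well, as did Timp1 (-7.00), the inhibitor of metalloproteases. Stc1 had 40.9, 111 and 77.5 CPM in siControl against 0.414, 0 and 0.277 CPM in siAATF. Without siAATF replicate 1 Esm1 was at -10.04, Ccn2 at -6.77, Stc2 at -7.04 and Pappa at -4.49, and without siAATF replicate 3 Timp1 was at -9.14. Pappa was no longer called without siAATF replicate 3 (-2.81, adjusted p = 0.0742, edgeR) or siControl replicate 1 (-2.81, adjusted p = 0.149, edgeR) or 3 (-3.47, adjusted p = 0.0961, edgeR). These directions were per mouse count, since with all gene counts as the scaling only Esm1 was lower among the IGFBP-related genes and only Stc1 and Timp1 among the proteases and inhibitors, where 7 and 3 genes were higher. Of all genes 0.66% were lower and 87.2% higher with that scaling. Stellate cell, fibroblast and endothelial markers fell along with both lists per mouse count, and their part was not tested.

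The insulin and FOXO1 target genes of the liver rose in 8 of 15 cases, beside 17.6% of all genes, and the other 7 did not pass, with a median log2 fold change of 2.40. Hepatocyte markers rose along with them, 13 of 15 and with a median of 4.91, and their part was not tested. Angptl8 (5.89), a regulator of lipoprotein lipase that insulin raises, Tat (4.92), an enzyme of tyrosine breakdown that is also a hepatocyte marker here, and Pck1 (4.38), the gluconeogenic enzyme that insulin represses, rose most. Targets that insulin raises (Srebf1 at 2.40, Fasn at 2.69) and targets that it represses (Pck1, G6pc1 at 3.04, Ppargc1a at 3.72) therefore rose together, while Igfbp1, itself such a repressed target, fell. Without siControl replicate 1 Pck1 was at 6.10, Tat at 5.92 and G6pc1 at 4.01, and without siAATF replicate 3 Pck1 was at 3.78. With mouse library size alone 4 of the 15 were higher and 3 (Sesn1, Trib1 and Trib3) lower, beside 4.15% and 40.4% of all genes. With all gene counts all 15 were higher, beside 87.2% of all genes. Pck1 had 124, 19.3 and 13.9 CPM in siControl against 387, 978 and 1971 CPM in siAATF.

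In the signal transduction list, 7 of 35 genes rose and 5 fell, which is near the 17.6% and 14.4% of all genes, with a median of 0.42 beside 0.50 for all genes. Grb14 (2.83), an adaptor that inhibits the insulin receptor, the receptor substrate gene Irs1 (2.46) and Map2k2 (1.79) rose most, and Grb10 (-2.30) and Mapk3 (-1.34) were among those that fell. Irs1 had 7.23, 0 and 1.67 CPM in siControl against 21.4, 19.4 and 16.8 CPM in siAATF. Of the imprinted and oncofetal growth genes 3 of 13 fell and 10 did not pass, the 3 being Mest (-4.61), H19 (-3.51) and Grb10. H19, the imprinted RNA next to Igf2, had 9.63, 0 and 8.92 CPM in siControl against 0.173, 0.202 and 1.33 CPM in siAATF (adjusted p = 0.0176, edgeR), and the siControl library at 0 overlapped siAATF. Without siControl replicate 1 Irs1 was at 3.87, without siAATF replicate 1 Grb10 was at -3.12, and without siAATF replicate 3 H19 was at -5.10. Scaled by all gene counts, 34 of the 35 signal transduction genes and 11 of the 13 imprinted and oncofetal genes were higher, beside 87.2% of all genes. With mouse library size alone 19 and 9 of them were lower, beside 40.4% of all genes.

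**Figure D5:**
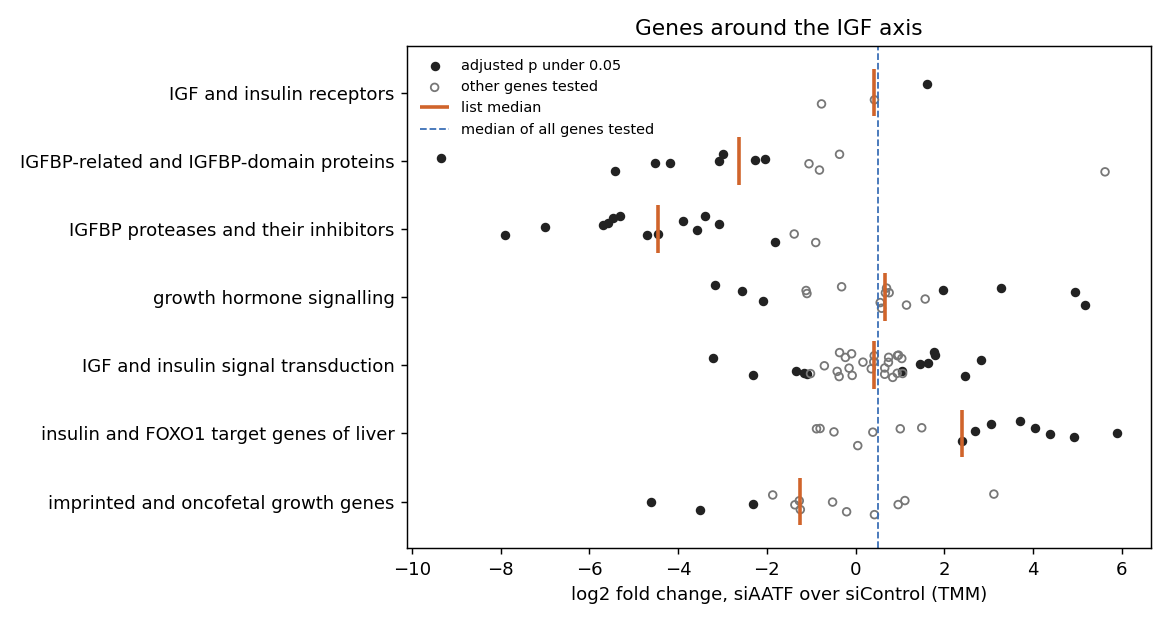
Log2 fold change of each tested gene in the 7 lists around the IGF axis, siAATF over siControl after TMM scaling, with filled points for an adjusted p under 0.05, the median of each list as an orange bar and the median of all genes tested, 0.50, as a dashed line. The proteases and their inhibitors lie furthest to the left (median -4.45) and the insulin and FOXO1 target genes furthest to the right (median 2.40).

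Genes whose level followed that of a member most closely over the 6 libraries were found by the root mean square difference of centred log2(CPM + 1), over 9457 genes with a mean of at least 50 counts. For Igf1 these were Ceacam1 (0.0960), Gm32461 (0.108) and C1rl (0.174). Igfals was nearest to Amdhd1 (0.154), Ttr (0.204) and Cyp4f15 (0.238), and Ghr to Ddt (0.147), Aldh5a1 (0.171) and Gm15417 (0.229). Igfbp4 was followed by Fmc1 (0.131), Ndufb10 (0.140) and Gm57127 (0.152), and Igfbp7 by Tgfbi (0.151), Rab31 (0.219) and Tmsb4x (0.247). Igfbp3 had Ccn2 (0.287), Tnc (0.402) and Col5a2 (0.469) as its nearest genes. The nearest genes of Igfbp5 were Isg20 (0.417), Ubash3b (0.422) and Gys1 (0.424). Those of Igfbp1, H2-Eb1 (0.524), Plac8 (0.596) and Ppp1r18 (0.597), and of Igfbp2, Gsta3 (0.570), Sdr9c7 (0.594) and Fabp2 (0.598), lay further away. Among the members themselves Igf1 and Ghr were the closest pair, at 0.607. Closeness on this scale is not an equal fold change, since the fitted log2 fold change was 5.95 for Gm32461 and 4.08 for Igf1, 4.11 for Gm57127 and 2.44 for Igfbp4, and -7.25 for Tnc and -5.74 for Igfbp3. The 6 points of each pair share their libraries and their scaling, so these values are a description.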

How the data were processed

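Total RNA of liver was made into SMART-Seq libraries (full-length cDNA, amplified by PCR) and sequenced, 3 per group. The authors trimmed reads with Cutadapt, aligned them with STAR (2.7.11, as the submitters' processing notes name it) to a joined human and mouse reference, removed reads that matched several places or both species, and deposited raw gene counts from featureCounts (2.0.1) in a table per species, with gene lengths. The mouse table uses GRCm39 and an earlier gencode release (33) than the one used here for names (39), which named 56323 of 56884 identifiers. No normalization had been applied by the authors to these counts. In the human counts, 1 gene broken over 3 lines was left out, also from the totals of all gene counts.

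Mouse counts were tested with edgeR 4.0.16 (R 4.3.3, TMM, quasi-likelihood test, group as the only term) over genes with at least 10 counts in all, and p-values were adjusted by Benjamini-Hochberg over all 18018 genes. The script was tested on simulated counts. CPM of all gene counts, shares and marker ratios were compared by two-sided exact permutation tests, whose smallest p was 0.1. Ratios had 0.5 counts added before the logarithm. Alternatives were DESeq2 1.42.0, which the authors also used, limma-voom (limma 3.58.1), other normalizations, filters and call rules, a replicate block, thinning and leaving out replicates. Totals were 213022 to 913584 mouse counts per siControl library and 11835898 to 42563694 per siAATF library. Limits for counts of 0 cover counting error only, since PCR copies are not independent molecules. Replicates were not the same library deposited again, since all pairs differed beyond sampling noise.

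The members and gene lists were chosen with earlier results of these data known. Named were all members, Igfbp6, the receptors, Aatf, up to 3 genes with the largest rise and fall per list among those called, the 2 markers with most counts per cell type, and the 3 genes nearest to each member. Other genes (Cebpa, Socs2, Cish, Stat5a, Stat5b, Pappa, Srebf1, Fasn, G6pc1, Ppargc1a, Sesn1, Trib1, Trib3, Col1a1, Col1a2, Itgam, Clec4g, Epcam, Hhip, Cftr, Tff2, Trf, Lrat, Reln, Ngfr, Clec4f, Timd4, Marco, Vsig4) were named after their values were seen. Some genes that the rule names are not reported here. Promoter windows, 250 bases before and 50 after each start, came from RefSeq (table build GRCm38.p6). All 10 members matched, and printed stretches were placed on GRCm39 by an exact match found once on the chromosome.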

Additional observations from a re-analysis of the deposited data

How the results depend on the processing

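Igf1, Igfals, Ghr and Igfbp2 kept their direction and their call in every alternative fit, 19 for Igf1 and 18 for each of the others, with log2 fold changes of 2.22 to 8.21, 3.22 to 9.12, 1.84 to 7.77 and 3.88 to 9.90. Scaling by all gene counts of both species, chosen after seeing the data, called 15830 mouse genes in place of 5762, 0 members lower (at an unadjusted p under 0.05 also 0, Igfbp3 being nearest at 0.0586) and 90 pathway genes in place of 51, and it reversed Igfbp1 (1.12), Igfbp5 (1.61) and Igfbp7 (0.47). At least 10 counts in every library left 6 members and fewer genes to test and gave 1745 mouse genes, 2 members called higher and 27 pathway genes. Thinning to the smallest mouse total, 213022 counts, gave 3004 mouse genes with all 9 members still called and moved Igf1 to 3.31, Igfbp4 to 1.76, Igfbp5 to -4.93 and Igfbp7 to -4.61, as limma-voom moved Igfbp1 to -3.78 and Igfbp2 to 4.67, and leaving out each replicate gave 3333 to 6088 (3333 without siControl replicate 3, the largest siControl library). Igfbp4 lost its call without siControl replicate 3 and with library size alone, and Igfbp3 with all gene counts, and the cause was not tested. List medians relative to that of all genes also moved. With no filter on low counts the signal transduction list went from -0.081 to -0.64 (0.46 with limma-voom) and the insulin and FOXO1 targets from 1.90 to 1.36. The proteases and inhibitors went from -4.95 to -2.58 with at least 10 counts in every library, which left 6 of 15 genes, and to -5.63 without siControl replicate 1, and the imprinted and oncofetal genes from -1.75 to -3.41 on thinning, which left 5 of 13 genes, and to -0.69 without siControl replicate 3.
With Alb alone as the denominator the marker ratio of Igf1 reversed to -0.092. With stellate cell and fibroblast markers in place of hepatocyte markers, the log2 differences of Igfbp1 (0.73), Igfbp4 (7.02), Igfbp5 (1.82) and Igfbp7 (0.45) reversed, with endothelial markers that of Igfbp4 (4.51), and with macrophage markers those of Igfbp4 (6.02) and Igfbp5 (0.82). Without siAATF replicate 3 the first of these for Igfbp1 was -0.29, and without siAATF replicate 2 the last for Igfbp5 was -0.0071.
With the replicate number as a block, 6766 mouse genes and 60 pathway genes were called and no member changed its call. Deviations of same-numbered libraries correlated at 0.111, 0.154 and -0.0237, so the numbers were not taken to pair the libraries. Leaving out both replicates 2, the smallest libraries, or the mitochondrial genes changed no member's call. Among the tested members Igfals and Igfbp2 had the fewest counts in siControl, with 0 to 12 and 2 to 19 per library.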
